A study of Mus musculus with 6 samples.

Results

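RNA-seq libraries of A20 cells that carried the complete TETact-v3 gene activation system and a non-targeting control sgRNA were compared with libraries of wild-type A20 cells, so that the comparison describes the engineered line itself rather than the activation of a target. The samples were chosen by their labels, and 4 of the 6 libraries of the series entered the comparison, 2 of control sgRNA cells and 2 of wild-type cells. All genes were considered, of which 12430 of the 27179 identifiers counted had enough reads to be tested. The remaining 2 libraries came from the same engineered line with an sgRNA that targets the promoter of Cd4. They entered the fit with the other 4 libraries, and so the spread estimate behind each call. Their values are set beside those of the control sgRNA cells where they help to place a result.

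A20 is a B cell lymphoma line from a BALB/c mouse. The control sgRNA cells expressed a catalytically dead Cas9 fused to an array of GCN4 peptides, a single-chain antibody that binds those peptides and carries the catalytic domain of TET1, and an MS2 coat protein fused to the activation domains of p65 and HSF1, which binds MS2 hairpins in the sgRNA. TET1 is an enzyme that oxidises methylated cytosine and so starts its removal from DNA, and p65 and HSF1 are transcription factors of the NF-kB pathway and of the heat shock response. The constructs were delivered by lentivirus and the cells were sorted on fluorescent reporters, whereas the wild-type cells were untransduced. The TETact-v3 components, the lentiviral insertions, the sorting, the passages between and the control sgRNA therefore cannot be told apart in this comparison. The study's methods describe the 2 libraries of a group as made from samples repeated independently, without saying at which step the repeats began.

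The libraries held between 23194920 counts (wild-type replicate 2) and 121623410 counts (control sgRNA replicate 1), so that 3 counts corresponded to between 0.0270 and 0.140 CPM, that is, counts scaled to the normalised library total. The wild-type replicates differed by a median of 0.0808 on the log2 scale, with 37 genes more than 2-fold apart, while the control sgRNA replicates differed by 0.259, with 458 such genes. Control sgRNA replicate 2 was the library that stood apart, since 1060 and 1169 genes separated it by more than 2-fold from the 2 Cd4 sgRNA libraries, against 152 and 137 genes for control sgRNA replicate 1. Mitochondrially encoded transcripts took 2.65% and 2.69% of the wild-type counts, 6.63% and 11.5% of the control sgRNA counts and 5.96% and 6.90% of the Cd4 sgRNA counts. Their part in the results below was not tested. Of 25 T and NK cell markers 8, including Cd3e, Gzma and Gzmb, had no count in any of the 4 libraries, as had 5 of 20 myeloid markers, 1 of 11 erythroid and megakaryocyte markers and 4 of 15 stromal and epithelial markers. The summed level of B cell markers was 12763 and 13071 CPM in wild-type and 7048 and 11325 CPM in control sgRNA cells. Ighm was the only one of 15 B cell markers without a count, and the other 14 had enough reads to be tested in these cells.

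A large part of the transcriptome differed between the control sgRNA cells and wild-type A20. The edgeR quasi-likelihood test was fitted to all 6 libraries. At an adjusted p under 0.05 it called 1807 genes higher (14.5% of those tested) and 1675 lower (13.5%). A fit of the 2 groups alone called 835 higher and 734 lower genes. Most changes called in the fit of all 6 libraries were modest, with 1137 of the higher and 1169 of the lower genes under 2-fold. The genes that were higher by at least 2-fold numbered 670 (5.39%), of which 340 were higher by at least 4-fold and 185 by at least 8-fold. Likewise 506 were lower by at least 2-fold (4.07%), 143 by at least 4-fold and 41 by at least 8-fold. Genes gained by at least 2-fold were mainly low in wild-type cells, with a median of 1.07 CPM that became 5.15 CPM. Over all tested genes the wild-type median was 27.7 CPM. Of all higher genes 118 had at most 3 counts in each wild-type library. Such genes could pass the read filter only through the transduced cells in which they were high. Their count is therefore neither a measure of all silent genes nor comparable with the losses. Genes lost by at least 2-fold had a median of 4.67 CPM in wild-type and 1.56 CPM in control sgRNA cells, and 9 of all lower genes were down to at most 3 counts in each of the control sgRNA libraries, which were deeper. By mean level, 209 higher genes went from under 1 CPM to 1 CPM or more, and 119 lower genes went the other way.

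**Figure D1:**
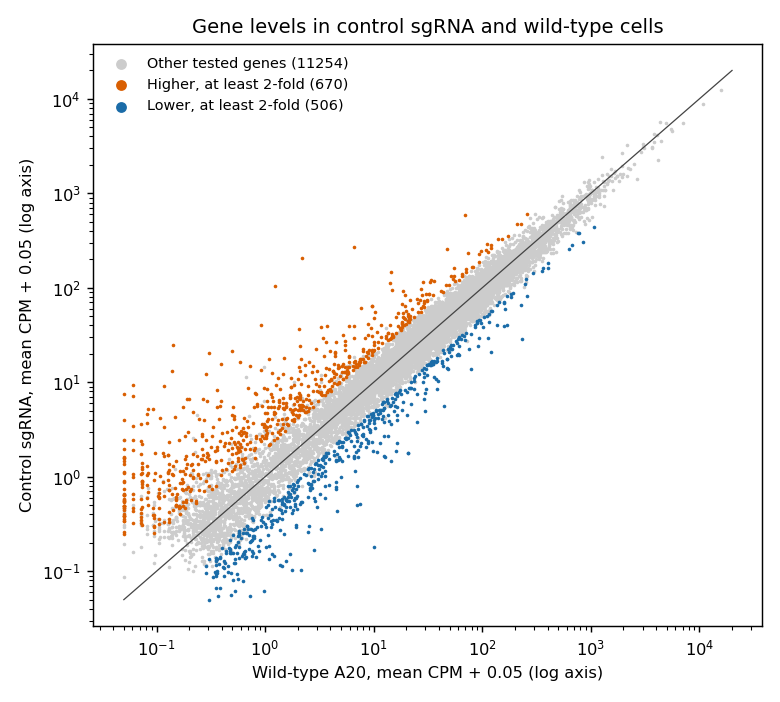
Mean level of each tested gene in wild-type A20 (horizontal) and control sgRNA cells (vertical), in CPM with 0.05 added, both on log axes, with the line of equal levels; each point is 1 gene. The 670 genes called higher by at least 2-fold spread furthest from the line at low wild-type levels, whereas the 506 called lower lie along its lower edge.

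Genes gained by at least 2-fold together took 0.558% and 0.561% of the tested counts in wild-type cells and 1.47% and 1.87% in control sgRNA cells. Genes lost by at least 2-fold took 1.62% in each wild-type library and 0.661% and 0.688% in control sgRNA cells. Both control sgRNA libraries were at least 2-fold from the wild-type mean for 469 of the 670 gained and 303 of the 506 lost genes, and 503 of the 670 gained genes were further from wild type in replicate 2 than in replicate 1. Without control sgRNA replicate 2 the fit called more genes in all, 3848 higher and 3743 lower. It held 1798 of the 1807 higher and 1673 of the 1675 lower genes, and 565 of the 670 gained and 456 of the 506 lost genes at 2-fold or more. Of the higher and lower genes 63 and 53 were still called without wild-type replicate 1, and 226 and 171 without wild-type replicate 2. The calls were lost with little change in fold for Mki67, whose log2 fold change, 0.95 in all libraries, was 1.04 and 0.90 in these fits, with adjusted p (edgeR) of 0.0611 and 0.0589. The comparison of each sgRNA with wild type shares the wild-type libraries. The Cd4 sgRNA libraries had median log2 differences from wild type of 1.12 and 1.06 over the 670 gained genes and of -1.04 and -1.08 over the 506 lost genes. In these libraries 372 and 353 of the gained and 266 and 284 of the lost genes were at least 2-fold from wild type. Of the 670 gained and 506 lost genes 5 and 0 passed the test between control and Cd4 sgRNA cells, in which 9 genes (0.0724%) were called in all. Not passing this test does not show equal levels.

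The genes with the strongest evidence of gain were nearly silent or low in wild-type A20. Nfkbiz, which encodes the nuclear IkB protein IkB-zeta (chr16:55811375-55838954), was at 2.15 CPM in both wild-type libraries and at 195 and 220.0 CPM in control sgRNA cells, a log2 fold change of 6.59 (SE 0.13, edgeR adjusted p = 2.25e-05). Gpat2, a mitochondrial glycerol-3-phosphate acyltransferase known from the testis, was at 1.12 and 1.26 CPM in wild-type cells and at 119 and 91.8 CPM in control sgRNA cells (log2 fold change 6.49, SE 0.20). Tex101, a surface protein of germ cells, went from 1 count in each wild-type library to 591 and 407 counts, which is 5.32 and 5.03 CPM and a ratio of 176 with a counting interval of 48.7 to 1459. These values set Gpat2 and Tex101, which are germline genes, among the strongest gains of the line.

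Ligands and receptors of developmental signalling were in the same group. Wnt10b, a WNT ligand, had 4 and 1 counts in wild-type cells and was at 9.05 and 9.26 CPM in control sgRNA cells, a ratio of 124 with a counting interval of 53 to 382. Tgfb3, a ligand of the TGF-beta family, had 2 and 3 counts in wild-type cells and was at 19.95 and 29.7 CPM in control sgRNA cells, a ratio of 327 with a counting interval of 140 to 1006. Fzd7, a receptor for WNT ligands, was at 0.646 and 0.42 CPM in wild-type and 15.5 and 17.4 CPM in control sgRNA cells (log2 fold change 4.84, SE 0.22). In each of these genes both control sgRNA libraries lay far above both wild-type libraries. Both were above in all 1807 genes called higher and in 33.3% of all tested genes.

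Shb, an adaptor protein of receptor tyrosine kinase and lymphocyte receptor signalling, was at 0.323 and 0.56 CPM in wild-type and 19.8 and 22.9 CPM in control sgRNA cells. Gsta4, a glutathione transferase that conjugates products of lipid peroxidation, went from 14.3 CPM in both wild-type libraries to 143 and 148 CPM. Igf2bp3, an RNA-binding protein of fetal tissues and tumours, rose from 13.9 and 14.1 to 115 and 108 CPM, although its span overlaps that of Malsu1 and reads could be shared. Hnrnpll, a splicing regulator of lymphocytes, rose from 3.06 and 3.36 to 35 and 41.6 CPM, and Enpp3, an ectonucleotidase chosen here after its values were seen, from 6.63 and 6.4 to 329 and 213 CPM. The adjusted p of these 5 genes (edgeR) was between 0.000101 and 0.000306, and the call of each of the 10 genes with the smallest p was kept without any single library.

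**Figure D2:**
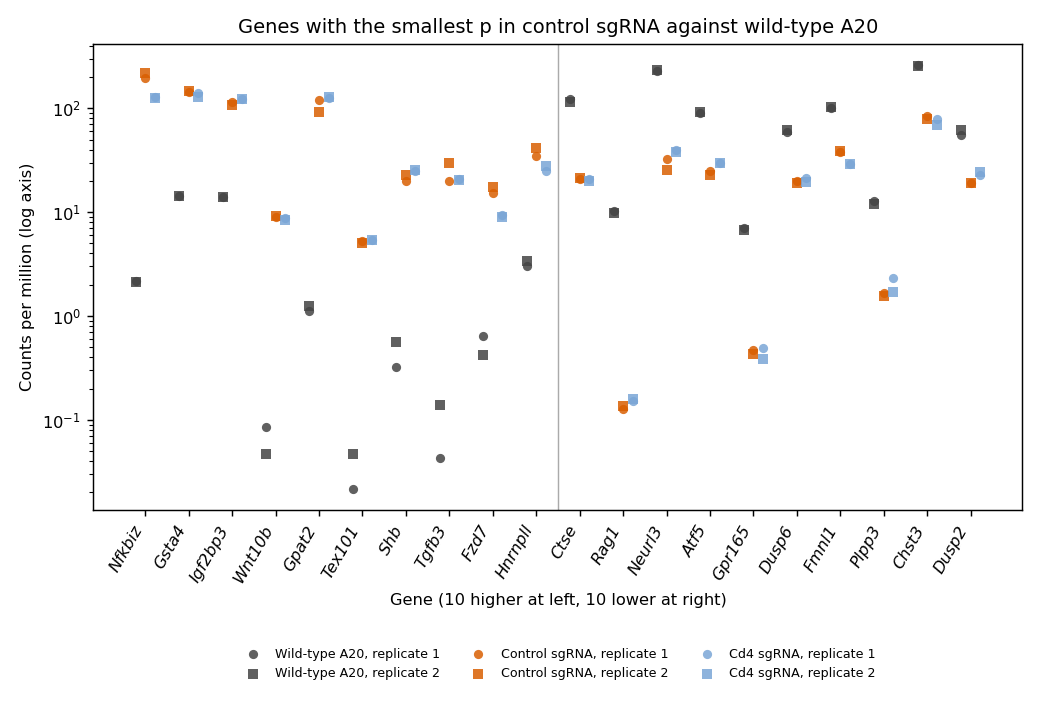
CPM of the 10 higher and 10 lower genes with the smallest p, on a log axis, with 1 point per library; grey points are wild-type A20, orange points control sgRNA cells and blue points Cd4 sgRNA cells. The 2 libraries of each group sit close together for most genes, and the Cd4 sgRNA points lie near the control sgRNA points.

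The promoters of Gpat2 and Tex101, which were gained, and of Rag1 and Gpr165, which were lost, are shown with the CG dinucleotides, the sites that DNA methylation and TET1 act on, marked. They were picked after the values were seen, from the 10 higher and 10 lower genes with the smallest p and a promoter in the table, and do not stand for these groups. In the same 250 bases the lost genes Fmnl1, Atf5, Dusp2, Chst3 and Dusp6 held 34, 26, 19, 18 and 16 CG dinucleotides, and the gained gene Enpp3 held 5. Each is the 250 bases before the annotated start, 5′ to 3′ on the strand of the gene (RefSeq, GRCm38.p6), with CG in capitals: 14 in Tex101 (chr7:24672051-24672300, minus strand), 11 in Gpat2 (chr2:127424949-127425198, plus strand), 3 in Rag1 (chr2:101649533-101649782, minus strand) and 6 in Gpr165 (chrX:96713218-96713467, plus strand).
Tex101: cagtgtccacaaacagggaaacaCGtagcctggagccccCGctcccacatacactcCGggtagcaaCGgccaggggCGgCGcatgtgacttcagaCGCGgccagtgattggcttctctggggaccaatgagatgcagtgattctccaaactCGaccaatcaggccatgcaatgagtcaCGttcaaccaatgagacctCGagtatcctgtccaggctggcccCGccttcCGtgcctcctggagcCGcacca
Gpat2: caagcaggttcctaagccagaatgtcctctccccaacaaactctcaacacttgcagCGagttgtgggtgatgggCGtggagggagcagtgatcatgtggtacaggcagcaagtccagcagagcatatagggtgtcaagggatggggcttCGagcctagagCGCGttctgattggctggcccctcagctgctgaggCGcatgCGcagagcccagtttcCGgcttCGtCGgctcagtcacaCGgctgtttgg
Rag1: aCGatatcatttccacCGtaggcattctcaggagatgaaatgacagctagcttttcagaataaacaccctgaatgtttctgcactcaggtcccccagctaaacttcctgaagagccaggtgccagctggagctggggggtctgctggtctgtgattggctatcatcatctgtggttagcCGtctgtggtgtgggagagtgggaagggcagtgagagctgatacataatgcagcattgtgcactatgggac
Gpr165: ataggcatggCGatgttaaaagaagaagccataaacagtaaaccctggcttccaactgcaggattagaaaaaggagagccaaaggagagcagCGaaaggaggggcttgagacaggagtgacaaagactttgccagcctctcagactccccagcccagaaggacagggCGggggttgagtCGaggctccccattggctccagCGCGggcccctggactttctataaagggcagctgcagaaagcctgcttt

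Rag1, the catalytic subunit of the recombinase that assembles immunoglobulin genes, showed the largest loss among the genes with the smallest p. It was at 10.2 and 9.71 CPM in wild-type A20 and at 0.126 and 0.136 CPM in control sgRNA cells, a log2 fold change of -6.24 (SE 0.22, edgeR adjusted p = 0.000124). Gpr165, an orphan receptor, was at 7.08 and 6.73 CPM in wild-type and 0.468 and 0.433 CPM in control sgRNA cells, and Plpp3, a lipid phosphate phosphatase, was at 12.9 and 12 CPM and at 1.67 and 1.56 CPM. Both therefore fell to low but measurable levels.

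The other genes of this group remained well expressed. Ctse, the aspartic protease cathepsin E, fell from 123 and 116 CPM to 20.9 and 21.1 CPM, and Neurl3, a ubiquitin ligase, from 231 and 235 to 32.3 and 25.5 CPM. Chst3, a chondroitin sulfotransferase, fell from 260.2 and 257 to 84.3 and 78.2 CPM, and Fmnl1, an actin-nucleating formin of blood cells, from 100.1 and 103 to 37.6 and 38.7 CPM. Atf5, a transcription factor of the amino acid stress response whose span overlaps those of Nup62 and Il4i1b, fell from 89.7 and 91.8 to 24.9 and 22.9 CPM. Dusp6 and Dusp2, phosphatases that switch off MAP kinases, fell from 59.6 and 61.7 to 19.8 and 18.9 CPM and from 55.9 and 62.1 to 19.3 and 19 CPM. The call of each of the 10 lower genes with the smallest p was likewise kept without any single library.

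Promoters of lost genes held fewer CG dinucleotides than those of gained genes or of all tested genes. Within a window of 250 bases before to 50 bases after the start, known for 9704 tested genes, the median was 21 CG dinucleotides over all genes, 18 over the 510 gained by at least 2-fold and 11 over the 381 lost by at least 2-fold. Of all tested promoters 82.0% held 10 or more, against 76.5% of gained and 53.3% of lost genes. The level in wild-type cells moved with this count: among genes under 1 CPM in wild type, 56.3% of all and 70.2% of the gained genes held 10 or more, and among genes at 1 CPM or more the shares were 85.8% of all, 82.6% of the gained and 57.9% of the lost genes. These are descriptions of groups defined by expression, and the methylation of these promoters was not analysed here.

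**Figure D3:**
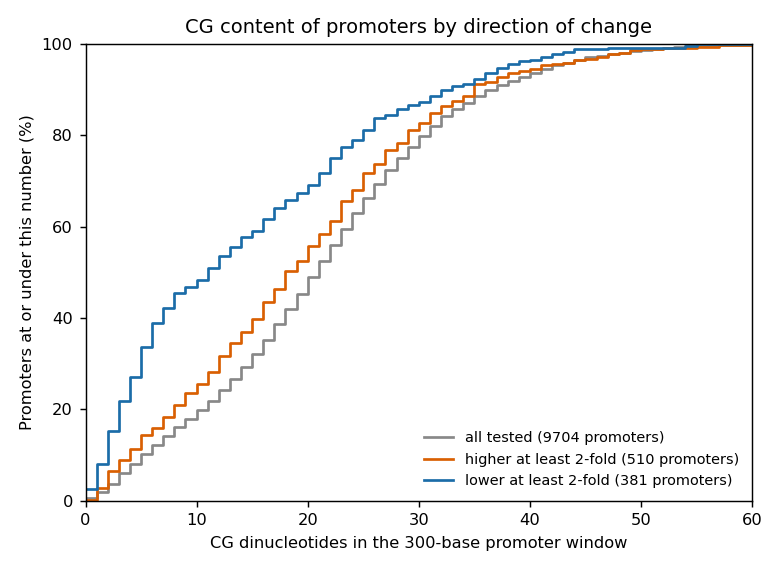
Cumulative share of promoters (vertical, %) with at most a given number of CG dinucleotides in the 300-base window (horizontal), for all tested genes (grey), genes higher by at least 2-fold (orange) and genes lower by at least 2-fold (blue). The blue curve lies above the others, with a median of 11 against 21 for all genes, so that lost genes had the fewest CG dinucleotides.

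Short motifs of NF-kB, of heat shock factors and of the hypoxia response were counted in the same windows. The NF-kB site was found on either strand in 5.01% of all promoters, 7.65% of gained and 6.82% of lost ones. The core of the hypoxia response element, ACGTG or GCGTG, was found in 63.6% of all, 58.4% of gained and 48.0% of lost promoters. The heat shock element, which HSF1 binds, was found in 0.350% of all promoters, 0.588% of gained and 0% of lost ones. A match describes the letters of the window and not the binding of a factor.

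Ranked by the amount of transcript rather than by p, the largest gains included genes of proliferation and protein folding. Mki67, the proliferation marker Ki-67, was at 1321 and 1198 CPM in wild-type and 2248 and 2609 CPM in control sgRNA cells (log2 fold change 0.95, SE 0.12, edgeR adjusted p = 0.0041). Hspa8, the constitutive HSP70 chaperone, was at 2217 and 2080 and at 3115 and 3363 CPM. Top2a, a topoisomerase of dividing cells, was at 541 and 537 and at 966 and 928 CPM, and Tubb5, a tubulin, was at 847 and 894 and at 1388 and 1258 CPM. The same ranking held Hdlbp, an RNA-binding protein (log2 fold change 0.51), Npm1, a nucleolar chaperone (0.49), and Ero1a, an oxidase of the endoplasmic reticulum (1.23). Wnt10a, a WNT ligand, rose from 68.3 and 71.5 CPM to 428 and 765 CPM, and its 2 control sgRNA values were far apart from each other but further from wild type.

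The largest losses by amount included several genes of B cells. Pou2af1, the coactivator OCA-B of octamer-binding factors, was at 2636 and 2732 CPM in wild-type and 1472 and 1372 CPM in control sgRNA cells (log2 fold change -0.92, SE 0.09, edgeR adjusted p = 0.00229). Prkcb, a kinase of B cell receptor signalling, was at 1337 and 1315 and at 589 and 865 CPM. Mef2b, a germinal centre transcription factor, was at 988 and 1044 and at 614 and 523 CPM. St6gal1, the sialyltransferase that makes the ligand of CD22, fell from 849 and 836 to 269 and 338 CPM. The rest of this group were Sfpq, a splicing factor (log2 fold change -1.27), Atp5a1, a subunit of the ATP synthase (-0.35), and the ribosomal pseudogenes Rpl13-ps6 and Gm10052 (-0.44 and -0.66), whose reads may belong to their parent genes. Of the 16 genes ranked by amount, St6gal1 kept its call without any single library, Wnt10a and Pou2af1 lost it without wild-type replicate 1, and the others lost it without either wild-type library.

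The B cell programme was lower as a group, with exceptions. Of 54 tested genes of B cell identity and B cell receptor signalling, 19 fell and 7 rose, 48.1% against 28% of all genes. The median log2 fold change was -0.24 (-0.40 in control sgRNA replicate 1 and -0.22 in replicate 2) against -0.000952 over all genes. Among the surface proteins, Cd79a, a signalling chain of the B cell receptor, was at 467 and 436 CPM in wild-type and 207 and 265 CPM in control sgRNA cells. Blnk, the linker that passes the receptor signal on, fell from 330.2 and 341 to 196 and 208 CPM, and Spi1, the transcription factor PU.1, from 135 and 138 to 78.7 and 75.4 CPM. Pax5, the factor that maintains B cell identity, was at 78 and 73.2 and at 65.4 and 56.1 CPM, which did not pass the test (edgeR adjusted p = 0.0651). Igkc, the kappa light chain constant region, fell from 645 and 621 to 215 and 306 CPM.

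Against this direction, Irf4, a factor of activated B cells and plasma cells, rose from 33.3 and 34.5 CPM to 93.9 and 145 CPM (edgeR adjusted p = 0.00358). Cd72, an inhibitory coreceptor, rose from 20.5 and 21.2 to 40.7 and 47.7 CPM, and Bcl10, an adaptor between the receptor and NF-kB, from 68.7 and 66.8 to 94.8 and 105 CPM. Of 13 tested plasma cell genes 5 rose and 3 fell, 61.5% against 28% of all genes. Creb3l2, a transcription factor of secretory cells, rose from 0.904 and 0.934 to 7 and 10.4 CPM, and Sdc1, the plasma cell surface marker syndecan-1, from 16.2 and 16.7 to 28 and 26.5 CPM. Xbp1, a factor of antibody secretion, fell from 326 CPM in both wild-type libraries to 205 and 224 CPM. Prdm1, the plasma cell factor BLIMP-1, was at 4.05 and 3.74 CPM in wild-type cells and at 9.29 and 33 CPM in control sgRNA cells, where the 2 libraries were far apart but both above wild type.

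Of 15 tested genes of immunoglobulin gene rearrangement and repair 40% were called, against 28% of all genes, and both expressed recombinase subunits fell. Rag2, the partner of Rag1, was at 9.04 and 10.4 CPM in wild-type and 1.59 and 2.05 CPM in control sgRNA cells (log2 fold change -2.41, SE 0.19, edgeR adjusted p = 0.00136). The 4 genes of this list that rose act in DNA repair, among them Prkdc, the catalytic subunit of DNA-dependent protein kinase, which went from 21.4 and 20.2 to 55 and 46.7 CPM. Over these 3 lists of B cell genes, 0 of the 15 higher and 2 of the 24 lower genes were still called without wild-type replicate 1, and 4 and 5 without wild-type replicate 2. Fitted on these 2 groups alone, 10 and 17 of them were called.

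**Figure D4:**
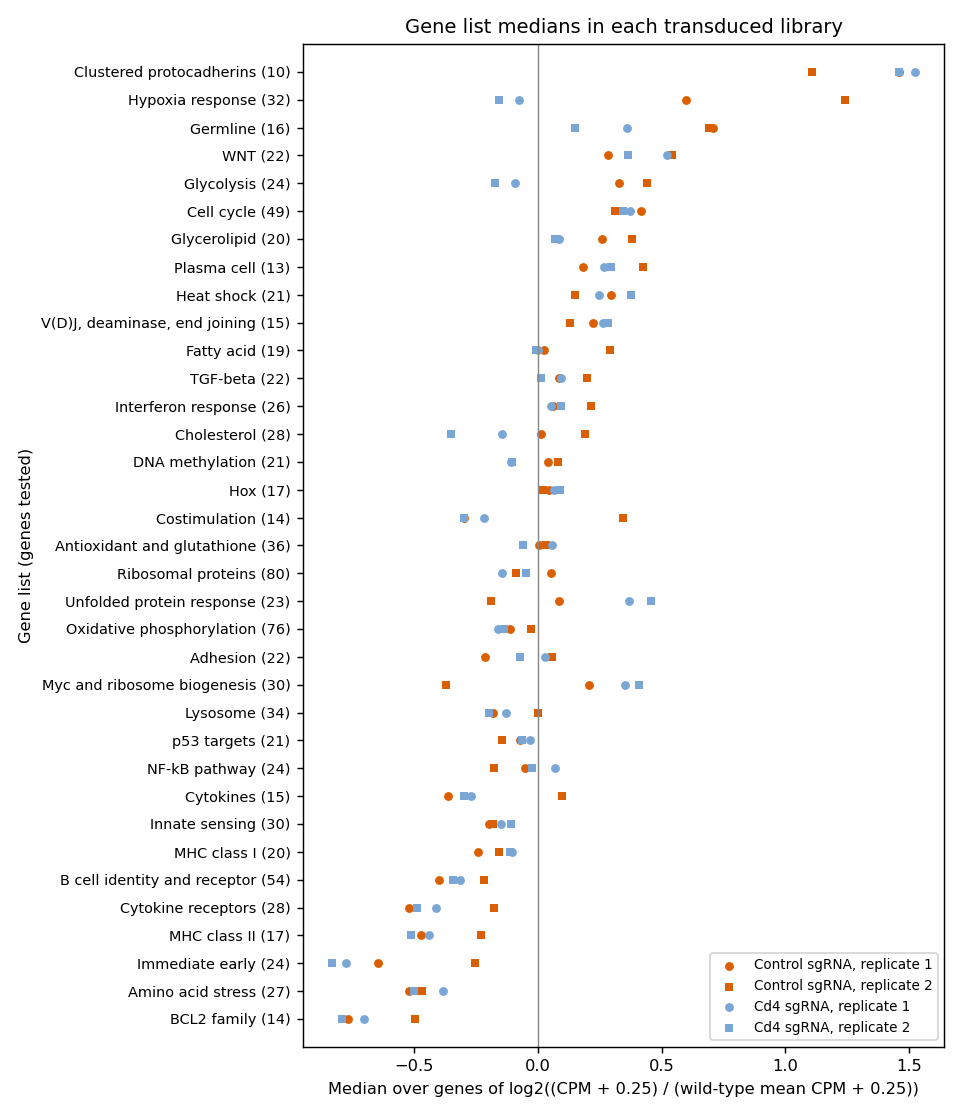
Median over the tested genes of each list of the log2 ratio of CPM to the wild-type mean (0.25 CPM added to both), for each control sgRNA library (orange) and each Cd4 sgRNA library (blue); the number of genes tested stands beside each name. Hypoxia and glycolysis lists are above 0 in both control sgRNA libraries and below 0 in both Cd4 sgRNA libraries, whereas the BCL2 family, amino acid stress, immediate early and B cell identity lists are below 0 in all 4.

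Antigen presentation and costimulation genes fell more often than they rose, with 16 lower and 3 higher of 51 tested. Over all genes 13.5% were lower and 14.5% higher. Of 17 tested genes of the MHC class II pathway 8 fell and none rose, 47.1% against 28% of all genes. The median log2 fold change of the class II genes was -0.34. Ciita, the master regulator of class II transcription, was at 140.0 and 135 CPM in wild-type and 80.2 and 69.3 CPM in control sgRNA cells (edgeR adjusted p = 0.00415), and H2-Aa, a class II chain, at 1301 and 1357 and at 862 and 1026 CPM. Cd74, the invariant chain, was at 5468 and 5526 CPM in wild-type cells, 3505 CPM in control sgRNA replicate 1 and 6032 CPM in replicate 2, and was not called.

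Of 20 tested MHC class I genes 4 fell and 1 rose, 25% against 28% of all genes. Nlrc5, the class I transactivator, fell from 10.2 and 8.83 to 6.46 and 6.22 CPM. H2-D1 and H2-Q4, class I heavy chains whose reads can be shared with near-identical copies, fell from 547 and 539 to 313 and 389.8 CPM and from 145 and 138 to 84.6 and 85.6 CPM. Psme2, a proteasome activator subunit, rose from 114 and 109 to 138 and 137 CPM. Of 14 costimulatory molecules and their receptors 4 fell and 2 rose, 42.9% against 28% of all genes. Cd83 fell from 44.1 and 41 to 19 and 24.7 CPM, Icosl from 36.5 and 36.6 to 21.6 and 23.2 CPM and Cd40 from 53.5 and 54.1 to 40.1 and 33 CPM. Tnfsf9, the ligand of 4-1BB, rose from 20.6 and 19.8 to 27.5 and 32.9 CPM. In these 3 lists 0 of the 3 higher and 1 of the 16 lower genes were still called without wild-type replicate 1, 0 and 2 without wild-type replicate 2, and 0 and 6 in a fit of the 2 groups alone.

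Of 24 tested genes of the NF-kB pathway 7 rose and 4 fell, 45.8% against 28% of all genes. NF-kB proteins are held inactive by IkB proteins, many of which are themselves induced by NF-kB. Of 10 tested inhibitors 6 rose and none fell (60%). Of 5 subunits 1 fell (20%), and of 9 activators 1 rose and 3 fell (44.4%), with a median of -0.15 over the 24 genes. Besides Nfkbiz, the atypical inhibitor Nfkbid rose from 27.5 and 26.6 to 109 and 84.9 CPM (edgeR adjusted p = 0.00131) and Nfkbia, the classical inhibitor IkB-alpha, from 96.2 and 92.2 to 187 and 265 CPM. Rela, the p65 subunit itself, was at 97.5 and 95.9 CPM in wild-type and 91.6 and 91.1 CPM in control sgRNA cells, and was not called. Whether reads of the p65, HSF1 and TET1 domains of the constructs were counted to Rela, Hsf1 and Tet1 was not tested.

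Cytokine receptor genes were called lower more often than higher, and cytokine genes were mixed. Of 28 tested receptors 8 fell and 1 rose, and of 15 cytokines 4 fell and 2 rose. These are shares of 32.1% and 40%, against 28% of all genes. The median log2 fold change of the cytokines was 0.16, with 8 of 15 above 0. Single libraries were described by the log2 ratio of CPM to the wild-type mean, with 0.25 CPM added to both. The medians of this ratio were -0.36 in control sgRNA replicate 1 and 0.10 in replicate 2. Il6ra, the interleukin 6 receptor, was at 31.6 and 28.2 CPM in wild-type and 7.4 and 7.77 CPM in control sgRNA cells (edgeR adjusted p = 0.00131). Il9r was at 251 and 240.1 and at 119.6 and 99.8 CPM, and Il17ra at 209 and 211 and at 116 and 112 CPM. Ltb, the lymphotoxin beta chain of lymphoid tissue organisation, fell from 724 and 748 to 367 and 416 CPM, Il16 from 485 and 479 to 203 and 280.0 CPM, and Csf1, the macrophage growth factor, from 34.7 and 33.9 to 18.2 and 15.3 CPM.

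Of 30 genes of innate sensing 10 fell and 1 rose, 36.7% against 28% of all genes. Cgas, the sensor of cytosolic DNA, fell from 2.73 and 2.85 to 0.837 and 0.853 CPM, its adaptor Sting1 from 240.5 and 251 to 150.0 and 157 CPM. The Toll-like receptor adaptors Tirap and Myd88 fell from 30.7 and 31.4 to 16.3 and 14.7 CPM and from 29.5 and 27.8 to 18.9 and 13.5 CPM. Ifih1, the RNA sensor MDA5, rose from 3.96 and 3.69 to 7.01 and 9.41 CPM. Of 26 interferon response genes 5 rose and 1 fell, a share of 23.1% that is below the 28% of all tested genes called in either direction. Bst2, the surface protein tetherin, rose from 36.9 and 34.4 to 107 and 126 CPM. Usp18, a negative regulator of interferon signalling, rose from 1.1 and 0.467 to 5.77 and 9.1 CPM, whereas Isg15, a typical member, was at 1.87 and 1.54 and at 1.22 and 2.09 CPM.

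Of 22 adhesion molecules 3 rose and 4 fell, 31.8% against 28% of all genes. Vcam1, a ligand of integrins, was near the counting limit in wild-type cells at 0.0861 and 0.0467 CPM, was at 1.37 and 1.82 CPM in control sgRNA cells, and was at 6.5 and 8.36 CPM in Cd4 sgRNA cells, a difference between the sgRNAs that passed the test (edgeR adjusted p = 0.0203). Cd44, the hyaluronan receptor, fell from 0.968 and 0.654 to 0.099 and 0.173 CPM, and Alcam from 20.9 and 21.2 to 6.8 and 10.7 CPM. Over the 6 lists of immune signalling genes, 3 of the 19 higher and 1 of the 31 lower genes were still called without wild-type replicate 1, 4 and 7 without wild-type replicate 2, and 8 and 18 in a fit of the 2 groups alone. Nfkbiz, Nfkbid, Il6ra and Bst2 kept their calls without any single library.

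Genes of acute activation were lower. Immediate early genes are switched on within minutes of receptor signals. Of 24 tested 10 fell and 2 rose, 50% against 28% of all genes, with a median log2 fold change of -0.47. The median was -0.72 without control sgRNA replicate 2 and -0.25 without replicate 1. Klf6, a transcription factor, was at 76.9 and 80.7 CPM in wild-type and 11.5 and 16.1 CPM in control sgRNA cells (log2 fold change -2.52, SE 0.17, edgeR adjusted p = 0.000965). Ier2 was at 17.4 and 16.8 and at 7.8 and 9.78 CPM, and Fos was at 1.92 and 1.26 and at 0.45 and 0.828 CPM, in addition to Dusp6 and Dusp2. Nr4a2, an orphan nuclear receptor, rose from 0.473 and 0.514 to 2.64 and 3.96 CPM. Atf3 was at 0.344 and 0.28 CPM in wild-type cells and at 2.34 and 8.59 CPM in control sgRNA cells.

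The BCL2 family, which sets the threshold of cell death, fell on both its sides. Of 14 tested members 8 fell and none rose, 57.1% against 28% of all genes, with a median log2 fold change of -0.59. The survival genes Bcl2a1b and Bcl2a1d, near-identical copies whose reads can be shared, fell from 4.33 and 4.48 to 0.729 and 0.643 CPM and from 10.4 and 11.5 to 4.55 and 3.71 CPM. Bid and Bcl2l11, which promote death, fell from 167 and 157 to 90.3 and 83.3 CPM and from 352 and 365 to 145 and 241 CPM. Bcl2 itself was at 1.16 and 1.54 and at 1.98 and 1.99 CPM, without a call.

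Of 21 p53 target and pathway genes 4 rose and 3 fell, 33.3% against 28% of all genes. Trp53cor1, a non-coding RNA induced by p53, rose from 0.323 and 0.42 to 1.76 and 2.35 CPM. Cdkn1a, the inhibitor p21, was at 7.17 and 6.3 and at 4.49 and 8.11 CPM, and Mdm2, the feedback ligase, at 72.6 and 72.9 and at 65.2 and 65.8 CPM. Over the 3 lists of activation, death and p53 genes, 0 of the 6 higher and 3 of the 21 lower genes were still called without wild-type replicate 1, 0 and 5 without wild-type replicate 2, and 3 and 11 in a fit of the 2 groups alone. Klf6, Dusp6 and Dusp2 kept their calls without any single library.

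Proliferation genes rose more often than they fell, and the growth regulator Myc was lower. Of 49 cell cycle genes 22 rose and 1 fell, 46.9% against 28% of all genes. Their median log2 fold change was 0.32 (0.42 in control sgRNA replicate 1 and 0.31 in replicate 2). In this list 9 of 15 mitotic, 6 of 18 replication and 7 of 16 G1 genes rose. The replication genes had a median of 0.46 in replicate 1 and of -0.02 in replicate 2, where their summed level of 3978 CPM was that of wild-type cells (3976 and 3991 CPM). Bub1, a kinase of the spindle checkpoint, was at 126 and 121 CPM in wild-type and 222 and 225 CPM in control sgRNA cells (edgeR adjusted p = 0.00209), beside Mki67 and Top2a above. Myc, which drives growth and ribosome production, was at 183 and 188 and at 92.7 and 66.6 CPM (log2 fold change -1.22, SE 0.16, edgeR adjusted p = 0.0048).

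Among the 30 Myc and ribosome biogenesis genes, Npm1 rose and Myc fell, 6.67% against 28% of all genes. The list's median was 0.21 in control sgRNA replicate 1 and -0.37 in replicate 2. Ncl, the nucleolar protein nucleolin, showed this split, with 2022 and 1866 CPM in wild-type cells, 3236 CPM in replicate 1 and 2142 CPM in replicate 2. Of 80 ribosomal protein genes 4 rose and 6 fell, and of 76 nuclear genes of oxidative phosphorylation 2 rose and 4 fell, shares of 12.5% and 7.89% that are below the 28% of all tested genes that were called in either direction. Over these 4 lists none of the 29 higher and 12 lower genes was still called without wild-type replicate 1, 1 and 0 without wild-type replicate 2, and 14 and 3 in a fit of the 2 groups alone.

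Genes of the hypoxia response and of glycolysis were higher in the control sgRNA cells than in wild-type cells, and the medians of both lists were below wild type in the Cd4 sgRNA cells. When oxygen is scarce, the factor HIF1 induces genes of glucose uptake, glycolysis and mitochondrial turnover. Of 32 tested hypoxia genes 21 rose and 2 fell, 71.9% against 28% of all genes. Their median log2 fold change was 0.97 (0.60 in control sgRNA replicate 1 and 1.24 in replicate 2). Of 24 glycolysis genes 11 rose and none fell, a share of 45.8%, with a median of 0.43. The medians in the 2 Cd4 sgRNA libraries were -0.08 and -0.16 for hypoxia genes and -0.09 and -0.18 for glycolysis genes.

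Slc2a1, the glucose transporter GLUT1, was at 118 and 125 CPM in wild-type cells, 276 and 293 CPM in control sgRNA cells and 111 and 108 CPM in Cd4 sgRNA cells. It differed from wild type by 1.23 on the log2 scale (SE 0.09, edgeR adjusted p = 0.000965) and from the Cd4 sgRNA cells by 1.38 (adjusted p = 0.0101). Slc16a3, a lactate exporter, was at 218 and 233, at 496 and 462 and at 196 and 199 CPM in the same groups, and the difference between the sgRNAs also passed the test (adjusted p = 0.0136). Stc1, a secreted glycoprotein, was at 1.83 and 2.71, at 11.4 and 12.1 and at 2.2 and 1.74 CPM (adjusted p between the sgRNAs 0.0203). The control sgRNA libraries of these 3 genes did not overlap another group. Such separation from wild type was common, since both control sgRNA libraries were above both wild-type libraries for 33.3% of all tested genes.

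Bhlhe40, a transcriptional repressor, was at 14.9 and 14.6 CPM in wild-type cells, at 76.2 and 114 CPM in control sgRNA cells and at 33 and 31.2 CPM in Cd4 sgRNA cells. Bnip3, a receptor of mitophagy, was at 133 and 144, 301 and 359.8, and 149 and 131 CPM. Enzymes of sugar breakdown were represented by Hk1, a hexokinase, at 20.9 and 22 CPM in wild-type and 44.4 and 102 CPM in control sgRNA cells, and Pfkl, a phosphofructokinase, at 504 and 557 and at 802 and 880.2 CPM. Vegfa, the angiogenic factor, was at 6.28 and 6.68 CPM in wild-type, 16.2 CPM in control sgRNA replicate 1 and 42.5 CPM in replicate 2. Many of these genes were therefore higher in replicate 2, the library with the largest mitochondrial share, whose part in this result was not tested.

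**Figure D5:**
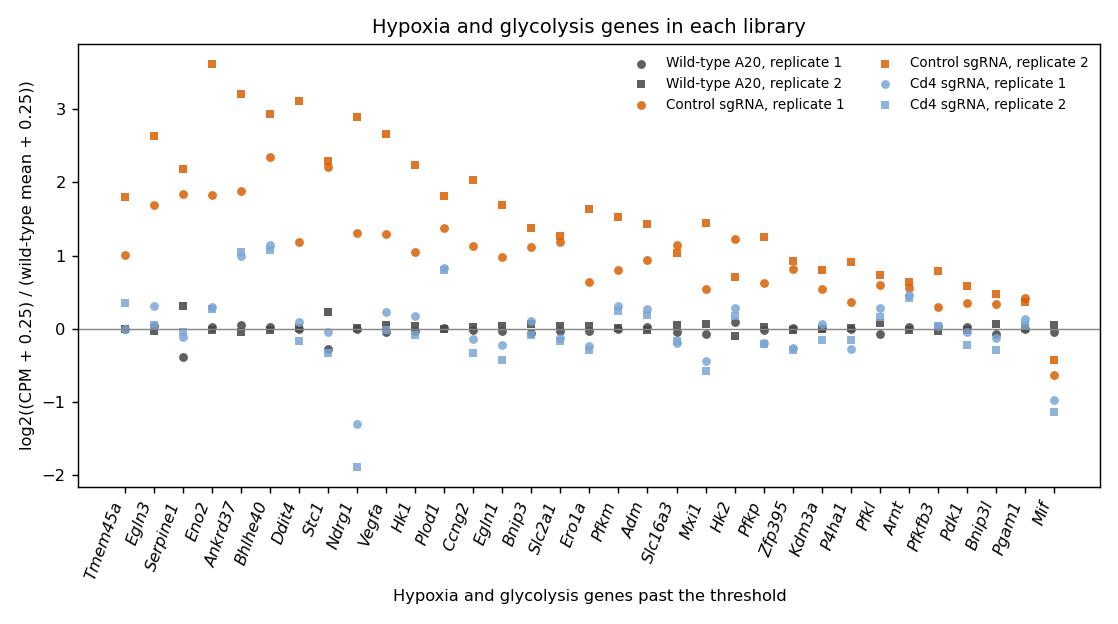
Log2 ratio of CPM to the wild-type mean (0.25 CPM added to both) for the hypoxia and glycolysis genes past the threshold, except P4ha2, with 1 point per library in wild-type (grey), control sgRNA (orange) and Cd4 sgRNA cells (blue). Apart from Mif, both orange points are above both grey points for each gene, as in all 1807 genes called higher. For most genes the orange square (replicate 2) is above the orange circle (replicate 1).

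Hif1a, the oxygen-regulated subunit of HIF1, was at 174 and 168 CPM in wild-type and 173 and 157 CPM in control sgRNA cells and was not called. The 2 members that fell were Mif, a cytokine, from 693 and 737 to 458 and 532 CPM, and P4ha2, a prolyl hydroxylase of collagen, from 28 and 16 counts to 1 and 0 counts. Of the 32 higher and 2 lower genes of the 2 lists, 19 and 1 were called in a fit of the 2 groups alone. Most of the 32 lost their call when either wild-type library was left out. Without control sgRNA replicate 2 the median log2 fold change was 0.60 for hypoxia and 0.33 for glycolysis genes. Without control sgRNA replicate 1 these medians were 1.27 and 0.44. Slc2a1 and Bhlhe40 kept their calls without any single library.

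Lipid synthesis genes rose in part. Of 28 cholesterol genes 8 rose and 1 fell, and of 19 fatty acid genes 6 rose and 2 fell. Of 20 genes of glycerolipid synthesis 9 rose and 2 fell. These shares were 32.1%, 42.1% and 55%, against 28% of all genes, with medians of 0.16, -0.01 and 0.26. The medians moved with the library left out, to 0.018 for cholesterol genes without control sgRNA replicate 2 and to 0.31 for fatty acid genes without replicate 1. Sqle, a rate-controlling enzyme of cholesterol synthesis, rose from 176 and 185 to 273 and 313 CPM. Abca1, which exports cholesterol, fell from 96.9 and 96.8 to 52.4 and 46.9 CPM.

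Acacb, an acetyl-CoA carboxylase of the mitochondrial surface, rose from 14.7 and 12.1 to 30.0 and 37.1 CPM, and Fads2, a fatty acid desaturase, fell from 1.44 and 1.21 to 0.117 and 0.334 CPM. Besides Gpat2, the acyltransferases Agpat2 and Mboat2 rose from 0.301 and 0.0934 to 3.36 and 4.77 CPM and from 0.495 and 0.607 to 2.93 and 3.04 CPM. Mboat2 was at 0.153 and 0.136 CPM in Cd4 sgRNA cells, below wild type (edgeR adjusted p between the sgRNAs 0.0140). Lpin1, a phosphatidate phosphatase, rose from 19.8 and 18.7 to 46.4 and 82.3 CPM. Over the 3 lists 1 of the 23 higher and 0 of the 5 lower genes were still called without wild-type replicate 1, 5 and 0 without wild-type replicate 2, and 12 and 3 in a fit of the 2 groups alone.

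The amino acid stress response was lower. This response is driven by the factor ATF4, which induces enzymes and transporters of amino acid supply when translation initiation is restrained. Of 27 tested members 15 fell and 2 rose, 63.0% against 28% of all genes. Their median log2 fold change was -0.51 (-0.52 and -0.47 in the control sgRNA replicates), and 8 of 11 enzymes fell. Atf4 itself was at 126 and 120.4 CPM in wild-type and 53.8 and 59.2 CPM in control sgRNA cells (log2 fold change -1.13, SE 0.11, edgeR adjusted p = 0.00244). Cth, an enzyme of cysteine synthesis, fell from 44.2 and 41.8 to 15.1 and 16.9 CPM. Psat1, of serine synthesis, fell from 779 and 783 to 407 and 361 CPM, and Asns, the asparagine synthetase, from 520.5 and 546 to 371 and 369 CPM, in addition to Atf5. The 2 members that rose were Atf3 and Cebpg, whose log2 fold change was 0.32.

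Genes of the unfolded protein response moved in both directions, with 3 of 23 higher and 4 lower, 30.4% against 28% of all genes. Derl3, a component of the degradation machinery of the endoplasmic reticulum, rose from 15.8 and 16.1 to 48.7 and 49.3 CPM (edgeR adjusted p = 0.000564). Herpud1, of the same machinery, fell from 298 and 296 to 158 and 142 CPM. Of 21 heat shock genes 6 rose and none fell, among them Hsf2, a heat shock factor, from 16.8 and 14.7 to 30.0 and 32.2 CPM and Bag3, a cochaperone, from 37.6 and 43.8 to 65.9 and 69.5 CPM. Hsf1, whose activation domain is part of the construct, was at 59.9 and 61.5 and at 64.9 and 58.3 CPM, without a call. The share of heat shock genes called, 28.6%, was near that of all genes.

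Among 36 antioxidant and glutathione genes 5 rose and 5 fell, 27.8% against 28% of all genes, and the 5 that rose were glutathione transferases, a class of 12 in which 2 fell. Beside Gsta4, Gstm1 rose from 0.56 and 0.327 to 2.55 and 3.65 CPM, and Gstk1 fell from 3.12 and 3.18 to 0.459 and 0.754 CPM. Hmox1, the haem oxygenase, fell from 813 and 814 to 648 and 618 CPM, and Nfe2l2, the factor NRF2, was at 54.2 and 49.5 and at 69 and 61.4 CPM (edgeR adjusted p = 0.0522).

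Of 34 lysosomal genes 3 rose and 6 fell, 26.5% against 28% of all genes. Beside Ctse, Cst3, an inhibitor of cathepsins, fell from 102 and 103 to 60.8 and 68.2 CPM, and Sqstm1, an autophagy receptor, from 443 and 459 to 272 and 315 CPM. Ctsl, cathepsin L, rose from 2.07 and 1.26 to 6.23 and 8.28 CPM. Over the 5 lists of stress and lysosomal genes, 2 of the 19 higher and 3 of the 30 lower genes were still called without wild-type replicate 1, 3 and 7 without wild-type replicate 2, and 10 and 19 in a fit of the 2 groups alone. Atf5, Cth, Derl3, Gsta4 and Ctse kept their calls without any single library.

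Of 21 tested genes of DNA methylation 4 rose and 3 fell, and this share, 33.3%, was near the 28% of all genes. Dnmt3a, a de novo DNA methyltransferase, was at 84.3 and 80.9 CPM in wild-type and 175 and 159 CPM in control sgRNA cells (log2 fold change 1.01, SE 0.09, edgeR adjusted p = 0.00183), and Dnmt1, the maintenance methyltransferase, at 297 and 286 and at 440.3 and 376 CPM. Counts assigned to Tet1 rose from 0.344 and 0.654 to 2.18 and 1.88 CPM, and Tet3, a related dioxygenase, fell from 57.9 and 55.6 to 45.8 and 43.2 CPM.

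Germline genes, many of which are kept silent by DNA methylation in somatic cells, were mostly not expressed. Of 44 listed only 16 had enough reads to be tested, of which 6 rose and 2 fell. Because a gene that was silent in wild-type cells could pass this filter only where it was gained, the count is not a measure of all germline genes. Besides Gpat2 and Tex101, Tuba3a, a testis tubulin, went from 1 and 0 counts to 8.73 and 5.33 CPM, a ratio of 495 with a counting interval of 88.7 to 19576. Piwil2, a protein of the piRNA pathway, was expressed in wild-type A20 and fell from 15.8 and 12.9 to 1.64 and 1.2 CPM (edgeR adjusted p = 0.000879). Ddx4, a germ cell helicase, was at 0.538 and 0.374 CPM in wild-type and 0.198 and 0.185 CPM in control sgRNA cells. Its call as lower was lost with voomLmFit (adjusted p = 0.0525) and DESeq2 (adjusted p = 0.215) and with thinned counts.

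Clustered protocadherins, adhesion proteins of neurons, had 10 of 58 genes with enough reads, of which 6 rose and 1 fell. As with the germline genes, a member without reads in wild-type cells could enter this count only where it was gained. Pcdhgb4 had no count in wild-type cells and was at 2.66 and 2.15 CPM in control sgRNA cells, at least 55.3-fold higher when 3 counts over both wild-type libraries are taken as the floor. Pcdhgc4 rose from 0.129 and 0.187 to 1.28 and 1.3 CPM. The gamma genes share exons, so their counts are uncertain. Of 17 tested Hox genes 1 rose and 1 fell, namely Hoxc6, from no count to 0.423 and 0.766 CPM (at least 12.8-fold), and Hoxa7, from 29.6 and 32.4 to 20.5 and 17.8 CPM. Of 9 tested imprinted genes none rose and Peg13, a non-coding RNA, fell from 0.473 and 0.701 to 0.117 and 0.0989 CPM. The shares of Hox and imprinted genes called, 11.8% and 11.1%, are below the 28% of all genes.

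Of 22 tested WNT genes 7 rose and 1 fell, 36.4% against 28% of all genes, with a median log2 fold change of 0.34. Those that rose included 3 ligands and 2 receptors. Only 4 of 19 ligands and 6 of 15 receptors had enough reads, and ligands near 0 in wild-type cells, such as Wnt10b, passed this filter through the groups in which they were high. Ctnnb1, beta-catenin, was the member that fell, from 565 and 563 to 422 and 346 CPM. Of 22 TGF-beta genes 4 rose and 2 fell, 27.3% against 28% of all genes, and with the ligand Tgfb3 the inhibitor Smad7 rose, from 0.603 and 0.56 to 2.07 and 2.74 CPM. Tgfbr1, a receptor, fell from 66.9 and 60.5 to 31.2 and 26.5 CPM. Of 9 listed oncofetal genes only 5 had enough reads, and all 5 were called, 100% against 28% of all genes. This share rests on few genes, chosen with earlier results of these data known. With Igf2bp3, 3 were higher, and 2 were lower with Arid3b, a DNA-binding protein that went from 23.4 and 23.5 to 9.25 and 11.3 CPM.

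Over the 8 lists of DNA methylation, germline and developmental genes, 6 of the 31 higher and 1 of the 13 lower genes were still called without wild-type replicate 1, 11 and 2 without wild-type replicate 2, and 19 and 7 in a fit of the 2 groups alone. Wnt10b, Fzd7, Tgfb3, Gpat2, Tex101, Igf2bp3 and Piwil2 kept their calls without any single library.

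Of the tested T and NK cell, myeloid, and erythroid and megakaryocyte markers 28.6%, 28.6% and 14.3% were called, against 28% of all genes. The share among stromal and epithelial markers, 66.7%, rests on 3 genes. Of 7 tested T and NK cell markers 2 fell, among them Cd2, from 8.67 and 8.5 to 2.44 and 4.28 CPM. Of 7 myeloid markers 2 fell, and of 7 erythroid and megakaryocyte markers 1 fell, the beta-globin gene Hbb-bs, from 21 and 20.1 to 0.99 and 2.47 CPM. Of 15 stromal and epithelial markers 3 had enough reads, with a median log2 fold change of 0.91, and 2 rose, namely Pdgfrb, from 1.12 and 1.03 to 5.06 and 9.76 CPM, and Epcam, from 15.9 and 17.3 to 25.6 and 36.5 CPM. Of the 14 tested B cell markers 6 fell and none rose, a share of 42.9%. Over all genes 28% were called and 13.5% were lower. In bulk RNA fewer cells with a transcript and less of it per cell cannot be told apart.

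The changes were spread over the genome. The median log2 fold change of single chromosomes lay between -0.04 on chromosome 6 and 0.05 on chromosome 3, the share of higher genes between 12% on chromosome 19 and 18.6% on chromosome 4, and the share of lower genes between 9.68% on chromosome 3 and 16.3% on chromosome 5. Among windows of 10 Mb with at least 20 tested genes, the lowest median was -0.25, at 50 to 60 Mb of chromosome 4, where Inip, of a DNA repair complex, and Txn1, thioredoxin, fell from 88.7 and 90.6 to 47.8 and 39.2 CPM and from 398 and 353 to 247 and 237 CPM. Next was 190 to 200 Mb of chromosome 1 with -0.24, where Slc30a1, a zinc exporter, fell from 30.3 and 30.5 to 8.97 and 7.87 CPM.

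The highest median, 0.55, was at 20 to 30 Mb of chromosome 13, where 19 of 78 tested genes rose and 2 fell. This window holds a histone gene cluster. H1f3, a linker histone, was at 0.646 and 1.54 CPM in wild-type and 6.24 and 4.65 CPM in control sgRNA cells. H2ac24, a core histone, was at 0.56 and 0.654 and at 1.89 and 1.99 CPM. Gmnn, an inhibitor of DNA replication licensing, was at 39.1 and 32.6 and at 59.5 and 60.2 CPM. In Cd4 sgRNA cells H1f3 was at 1.22 and 1.4 CPM and H2ac24 at 0.855 and 1.02 CPM, nearer to wild type. The messages of such histone genes largely lack the poly(A) tail by which RNA was selected, and the part of RNA selection in this result was not tested.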

How the data were processed

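Polyadenylated RNA of A20 cells was sequenced in 6 libraries, 2 per group. The authors aligned the reads with Rsubread to mm10 (GRCm38) and deposited counts per gene, made by featureCounts on its inbuilt annotation with Entrez identifiers; the use of strand in counting is not given in the sources used here. Genes without a RefSeq symbol or with a duplicated one, mitochondrially encoded genes, rRNA genes and those with the annotation type "other" were left out, after which 12430 genes passed filterByExpr. CPM were computed here from the counts of these genes, scaled to their total in each library times its TMM factor. The edgeR (4.0.16) quasi-likelihood test with robust estimation and TMM factors was fitted to all 6 libraries with a term per group, with Benjamini-Hochberg adjustment at 0.05. An exact permutation of 2 against 2 libraries cannot go below p = 0.333, so significance rests on the spread estimated across genes and on all 3 groups. Alternatives were limma (3.58.1) voomLmFit, the test of the study, DESeq2 (1.42.0), other scaling and filters, thinned counts, the 2 groups alone, a replicate block and each library left out in turn.

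Named genes were the 10 with the smallest p and the 8 with the largest change in CPM in each direction, the 3 called members with the smallest p in each direction of each list and its leading members, and genes leading a chromosome window; not all of them are printed. The members and lists were chosen with earlier results of these data known. Promoters were the first RefSeq entry per gene (GRCm38.p6). A log2 median of a gene group given for a single library is of the ratio of CPM to the wild-type mean, with 0.25 CPM added to both. Other log2 medians of gene groups are of edgeR log2 fold changes, so these can lie outside the values of the single libraries. Counting intervals of ratios are exact at 95% and cover counting error only. On simulated counts of 12278 genes, 86.6% of 67 genes changed 2-fold were recovered, and 98.5% of 67 genes changed 4-fold. Recovery was not split by expression level or by the spread within each group. These rates therefore cannot show the recovery of genes low in wild-type cells. Nor can they show it under the wider spread between the control sgRNA replicates. Some genes of the lists are counted in them but not reported here by name.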

Additional observations from a re-analysis of the deposited data

Results flagged for a closer look

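Mitochondrially encoded transcripts, which were not among the tested genes, took a larger share of the counts in both control sgRNA libraries than in wild-type A20. The share was 6.63% (95% Wilson interval 6.63 to 6.64) in control sgRNA replicate 1 and 11.5% (11.5 to 11.6) in replicate 2, against 2.65% (2.65 to 2.65) and 2.69% (2.69 to 2.70) in the wild-type replicates, and 5.96% and 6.90% in the Cd4 sgRNA libraries. The intervals cover counting error only.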

How the results depend on the processing

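The number of called genes was lowest without a wild-type library. Leaving out 1 library in turn gave between 63 and 4228 higher and between 53 and 3989 lower genes, and between 63 and 1344 higher and 53 and 870 lower genes of at least 2-fold; the low ends were without wild-type replicate 1 (226 and 171 higher and lower without wild-type replicate 2), and the high ends without a control sgRNA library. Where 1 library was left in a group it was assumed to vary like the other groups. A fit of the 2 groups alone called 835 higher and 734 lower genes. DESeq2 called 2193 and 1955, voomLmFit 1546 and 1575. With library size as the only scaling 2043 were higher and 1464 lower, and the median of all genes moved by 0.042 on the log2 scale. With the replicate number as a block 1550 were higher and 1420 lower. The deviations of the same-numbered wild-type and control sgRNA libraries correlated at -0.00906 over genes. With 2 libraries per group this value cannot show whether same-numbered samples were paired in preparation. Of 166 genes in the text, 118 lost their call without wild-type replicate 1 and 81 without wild-type replicate 2. Some of these 166 genes, such as Pax5, Bcl2 and Cd74, were not called in the main fit and so had no call to lose. In the wild-type library of least depth a level under 0.140 CPM is under 3 counts. Under voomLmFit Atf3, Prdm1 and Vegfa had adjusted p of 0.104, 0.135 and 0.0634. Without control sgRNA replicate 1 and without replicate 2 the median log2 fold change was -0.20 and -0.40 for B cell identity genes, -0.21 and -0.47 for MHC class II genes, -0.15 and -0.57 for cytokine receptors, and 0.36 and -0.30 for costimulatory molecules.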

Other observations

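Long non-coding RNAs made up 13.0% of the genes lost by at least 2-fold, against 3.81% of all tested genes and 2.39% of those gained by at least 2-fold. Examples, chosen after their values were seen, are A530040E14Rik, at 48.9 and 45.9 CPM in wild-type and 10.5 and 17.9 CPM in control sgRNA cells, and Gm9054, at 7.10 and 6.35 and at 1.07 and 1.15 CPM. The Gm9054 call was kept without any single library.

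Immunoglobulin and T cell receptor gene segments, counted before any filter, took 0.635% and 0.643% of the counts in wild-type, 0.239% and 0.399% in control sgRNA and 0.253% and 0.229% in Cd4 sgRNA cells.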
